A study of Homo sapiens with 3 samples.

Results

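The genes described here are 9 components of TGF-beta signalling: the ligand TGFB1, the receptors TGFBR1 and TGFBR2, the signal transducers SMAD2, SMAD3 and SMAD4, and the inhibitors SMAD7, SKI and SKIL. They were chosen by gene symbol, each symbol had 1 row, and they are 9 of the 30923 genes in the table. RNA sequencing was done on the QBC-939 line, which derives from a human tumour of the bile ducts (cholangiocarcinoma) and is labelled wild type. Of the 3 libraries, 1 came from cells that overexpressed miR-182-5p, 1 from cells that overexpressed miR-183-5p and 1 from cells that overexpressed a control that the labels name NC without saying what it is. The titles of both microRNA libraries carry the ending "mim", and the sources used here give neither a dose nor a time. The amount of each microRNA was not analysed here.

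Each group being a single library, nothing here has a replicate check and no test was made between conditions. All ratios below describe these 3 libraries. The 95% intervals given in parentheses after a ratio are exact (Clopper-Pearson) and cover counting error only, not differences between cultures. Gene counts summed to 64516706 in the NC library, 61709874 with miR-182-5p and 67427313 with miR-183-5p. Levels are given as CPM, the counts of a gene scaled to the total of its library, for comparing a gene between libraries, and as FPKM, which also divides by gene length, for comparing genes. Both microRNA libraries are compared with the same NC library, so the ratios to NC are not independent of each other. In RNA from a whole culture, fewer cells that express a gene and less RNA of it per cell cannot be told apart.

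TGF-beta is secreted in a latent complex and, once released, joins the type II receptor TGFBR2 with the type I receptor TGFBR1, which phosphorylates SMAD2 and SMAD3. These bind the common partner SMAD4 and enter the nucleus. SMAD7 competes at the receptor and recruits ubiquitin ligases to it, while SKI and SKIL sit on SMAD complexes in the nucleus and recruit corepressors. SMAD7 and SKIL are themselves induced by the pathway as feedback inhibitors. In bile duct and other gastrointestinal epithelia the pathway restrains growth, and SMAD4 and TGFBR2 are known tumour suppressors there. A microRNA pairs through its seed, positions 2 to 8 from its 5′ end, with matching sites in the 3′ UTR of messenger RNAs and usually lowers them.

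The mature microRNAs are shown first because the sites in the 9 genes are read from their seeds, which are in capitals. The sequences come from RefSeq (GRCh38.p14), both on the minus strand of chromosome 7, at chr7:129770447-129770470 for miR-182-5p and chr7:129774967-129774988 for miR-183-5p.
miR-182-5p: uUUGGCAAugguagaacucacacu
miR-183-5p: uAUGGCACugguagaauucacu
The seeds differ, so the sites differ: TTGCCAA pairs with positions 2 to 8 of miR-182-5p and GTGCCAT with those of miR-183-5p. A match to positions 2 to 7 followed by an A (TGCCAAA or TGCCATA) was also counted as a site.

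Sites were read in the longest annotated 3′ UTR of each gene (GENCODE 29, GRCh38). For miR-182-5p, 5 of the 9 genes held at least 1 site (SMAD2, SMAD3, SMAD4, SMAD7 and SKIL), against 23.8% of 12460 measured genes with a 3′ UTR. For miR-183-5p, 5 of the 9 held one (SMAD2, SMAD3, SMAD4, SKIL and TGFBR1), against 18.7%. TGFB1, TGFBR2 and SKI had none of either kind, with 3′ UTRs of 729, 2543 and 3354 bases. Those of SMAD4, TGFBR1, SMAD3 and SKIL have 6578, 4887, 4659 and 4418 bases. That of SMAD7, which held a miR-182-5p site, has 1519. The shares of all genes were not matched for 3′ UTR length, and the part of length in these counts was not tested. The annotated 3′ UTR of SMAD2 is 32870 bases long and holds many sites, all of the miR-182-5p ones starting at base 12134 of the UTR or later. Sites of SMAD4 and SKIL are shown because these are the genes with the highest and the lowest ratio, and the one of SMAD7 because this gene has been reported as a miR-182-5p target. The paired bases are in capitals and each sequence is written 5′ to 3′ along the messenger RNA.
SMAD4, miR-182-5p, chr18:51079078-51079104, plus strand: agttttatttTTGCCAAggcaaaaaac
SMAD4, miR-182-5p, chr18:51082056-51082082, plus strand: cccttcgttaTTGCCAActttactggc
SMAD4, miR-183-5p, chr18:51078919-51078945, plus strand: caaaaataatGTGCCATgtgggtgagt
SMAD4, miR-183-5p, chr18:51081455-51081481, plus strand: aataaatcacTGCCATAtaaccttgct
SKIL, miR-182-5p, chr3:170394951-170394977, plus strand: actctttgtgTGCCAAAttcactaggc
SKIL, miR-182-5p, chr3:170396526-170396552, plus strand: agttaaaattTTGCCAAtgatgtacag
SKIL, miR-183-5p, chr3:170394709-170394736, plus strand: atgcgttggtGTGCCATAggtttctaac
SMAD7, miR-182-5p, chr18:48919957-48919983, minus strand: aaataacaaaTGCCAAAttaaaaaaga
SMAD4 and SKIL thus both held sites for both microRNAs. In the miR-182-5p library they stood on opposite sides of NC. A site here is a match of letters and no measurement of binding, and the part of the sites in the ratios was not tested.

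The comparison with NC asked which genes differ when either microRNA is overexpressed. All 9 genes were expressed above 1 CPM in every library. At 1.2-fold or more on the CPM scale, 1 of the 9 was higher with miR-182-5p (SMAD4) and 1 was lower (SKIL). Over all 15464 genes with at least 1 CPM in either library, 28.9% were higher and 19.2% lower by that rule. In the miR-183-5p library 0 of the 9 passed 1.2-fold in either direction, where 14.9% of all genes were higher and 12.1% lower. Between the microRNA libraries SMAD4 was again the 1 gene higher with miR-182-5p and SKIL the 1 gene lower, against 22.2% and 10.1% of all genes. Both of these lie close to the threshold: SMAD4 was below 1.2-fold with TMM or DESeq2 size factors, SKIL was within it without the mitochondrial genes in the total, and neither passed on log2 of FPKM plus 1. For each microRNA against NC, the share of the 9 genes past 1.2-fold was thus below that of all genes in both directions. Between the microRNA libraries 11.1% of the 9 were lower, close to the 10.1% of all genes. A single gene makes up 11.1% of the 9, so these shares are coarse. The median log2 ratio of the 9 genes was 0.07 for miR-182-5p against NC, where that of all genes was 0.02, and 0.03 for miR-183-5p against NC, where that of all genes was -0.02.

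**Figure D1:**
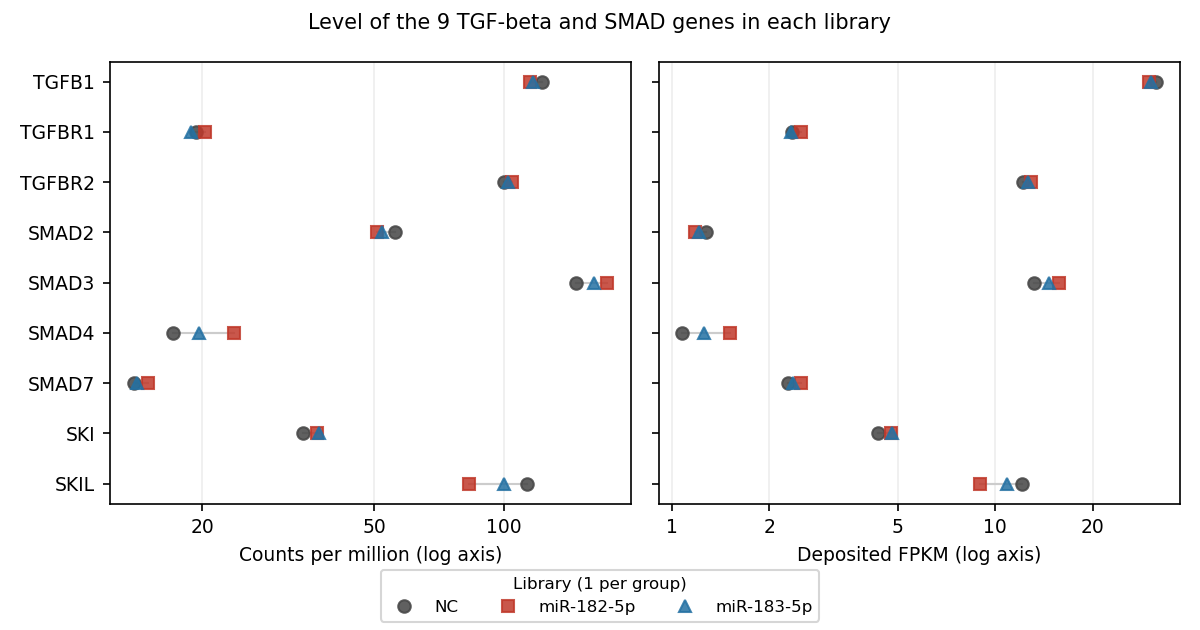
Level of each of the 9 genes in the 3 libraries, as CPM (left) and as deposited FPKM (right), both on log axes; each point is 1 library. SMAD4 lies lowest in NC and highest with miR-182-5p and SKIL lies the other way round, while the points of both receptors nearly coincide.

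SMAD4 (ENSG00000141646, chromosome 18, 51028394 to 51085045, plus strand, GRCh38) encodes the partner shared by all receptor-activated SMADs. It had 1103 counts in NC (17.1 CPM), 1460 with miR-182-5p (23.7 CPM) and 1326 with miR-183-5p (19.7 CPM). NC was lowest, and the miR-183-5p library lay between the others. The ratio to NC was 1.38 (1.28 to 1.498) for miR-182-5p and 1.15 (1.06 to 1.25) for miR-183-5p, and the ratio between the microRNA libraries was 1.203 (1.12 to 1.297). Of all measured genes, 17.6% had a higher ratio than SMAD4 with miR-182-5p. A transcript on the same strand, AC091551, overlaps SMAD4 but had only 10 counts in NC, 15 with miR-182-5p and 7 with miR-183-5p.

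SKIL (ENSG00000136603, chromosome 3, 170357678 to 170396835, plus strand), also called SnoN, had 7305 counts in NC (113 CPM), 5121 with miR-182-5p (83.0 CPM) and 6752 with miR-183-5p (100.1 CPM). Here NC was highest, and the miR-183-5p library again lay between. The ratio to NC was 0.733 (0.707 to 0.760) for miR-182-5p and 0.884 (0.855 to 0.914) for miR-183-5p, and the miR-182-5p library stood at 0.829 (0.799 to 0.859) times the miR-183-5p library. In the miR-182-5p library 6.997% of all measured genes had a ratio as low or lower. No other gene in the table overlaps SKIL.

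SKI (ENSG00000157933, chromosome 1, 2228319 to 2310213, plus strand), the relative of SKIL with the same role on SMAD complexes, did not share its pattern. It had 2208 counts in NC (34.2 CPM), 2279 with miR-182-5p (36.9 CPM) and 2517 with miR-183-5p (37.3 CPM). Its ratio to NC was 1.08 (1.02 to 1.14) and 1.09 (1.03 to 1.16). The number of SKIL counts per SKI count, which does not depend on library scaling, was 3.31 (3.15 to 3.47) in NC, 2.25 (2.14 to 2.36) with miR-182-5p and 2.68 (2.56 to 2.81) with miR-183-5p.

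The count of SMAD4 against SKIL was compared in the same way; this and the other pairs of genes were chosen after their values were seen. There were 15.1 SMAD4 counts per 100 SKIL counts in NC (14.2 to 16.1), 28.5 with miR-182-5p (26.9 to 30.2) and 19.6 with miR-183-5p (18.5 to 20.8). These members were paired as the highest and the lowest, so the pair restates that choice.

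**Figure D2:**
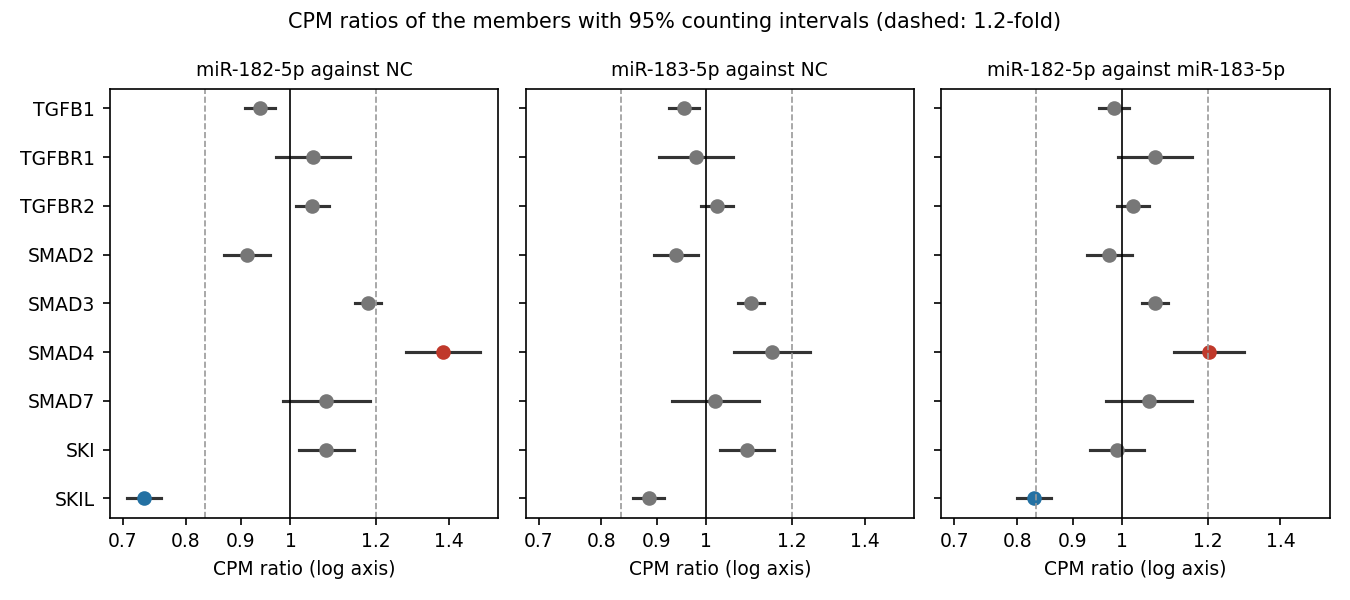
CPM ratio of each gene (points, log axis) with its 95% counting interval (bars) in the 3 comparisons; red and blue points are past 1.2-fold (dashed lines). SMAD4 at 1.38 and SKIL at 0.733 lie beyond the lines with miR-182-5p, and no gene does with miR-183-5p.

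Among the receptor-activated SMADs, SMAD3 was higher and SMAD2 lower than NC in both microRNA libraries, each by less than 1.2-fold. SMAD3 (ENSG00000166949, chromosome 15, 67063763 to 67195169, plus strand) had 9506 counts in NC (147 CPM), 10722 with miR-182-5p (174 CPM) and 10925 with miR-183-5p (162 CPM). Its ratio to NC was 1.18 (1.15 to 1.21) for miR-182-5p and 1.10 (1.07 to 1.13) for miR-183-5p. SMAD2 (ENSG00000175387, chromosome 18, 47808957 to 47931141, minus strand) had 3600 counts in NC (55.8 CPM), 3140 with miR-182-5p (50.9 CPM) and 3526 with miR-183-5p (52.3 CPM), with ratios of 0.912 (0.869 to 0.957) and 0.937 (0.894 to 0.982). SMAD3 counts per SMAD2 count were 2.64 (2.54 to 2.74) in NC, 3.41 (3.28 to 3.55) with miR-182-5p and 3.10 (2.98 to 3.22) with miR-183-5p.

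Both receptors lay close to NC with either microRNA. TGFBR2 (ENSG00000163513, chromosome 3, 30606601 to 30694142, plus strand), which binds the ligand, had 6452 counts in NC (100.005 CPM), 6463 with miR-182-5p (104.7 CPM) and 6897 with miR-183-5p (102 CPM). Its ratio to NC was 1.05 (1.01 to 1.08) and 1.02 (0.989 to 1.06). TGFBR1 (ENSG00000106799, chromosome 9, 99104038 to 99154192, plus strand), the kinase that phosphorylates the SMADs, had 1245 counts in NC (19.3 CPM), 1249 with miR-182-5p (20.2 CPM) and 1272 with miR-183-5p (18.9 CPM), with ratios of 1.05 (0.969 to 1.14) and 0.978 (0.903 to 1.06). TGFBR1 holds a miR-183-5p site at positions 2 to 8 and its interval in that library includes 1. There were 19.3 TGFBR1 counts per 100 TGFBR2 counts in NC, 19.3 with miR-182-5p and 18.4 with miR-183-5p, with overlapping intervals.

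The ligand TGFB1 (ENSG00000105329, chromosome 19, 41301587 to 41353922, minus strand) had 7909 counts in NC (123 CPM), 7086 with miR-182-5p (115 CPM) and 7879 with miR-183-5p (117 CPM). Its ratio to NC was 0.937 (0.907 to 0.967) and 0.953 (0.924 to 0.984), a small difference in both. TGFB1 overlaps HNRNPUL1 on the opposite strand, which had 371 CPM in NC, 285 with miR-182-5p and 325 with miR-183-5p. Also on the opposite strand, CCDC97 lies within the TGFB1 span and had 2062, 1669 and 2026 counts in the same order. TMEM91 overlaps there too, with 138, 248 and 212 counts. On the same strand, AC011462 lies within TGFB1 and had 85, 116 and 148 counts. The sources used here do not say whether counting used strand, and these overlaps leave the TGFB1 values uncertain. SMAD7 (ENSG00000101665, chromosome 18, 48919853 to 48952052, minus strand), the feedback inhibitor and reported miR-182-5p target, had the fewest counts of the 9 genes: 894 in NC (13.9 CPM), 923 with miR-182-5p (15.0 CPM) and 952 with miR-183-5p (14.1 CPM). Its ratio was 1.08 (0.983 to 1.18) with miR-182-5p and 1.02 (0.929 to 1.12) with miR-183-5p, and both intervals include 1.

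**Figure D3:**
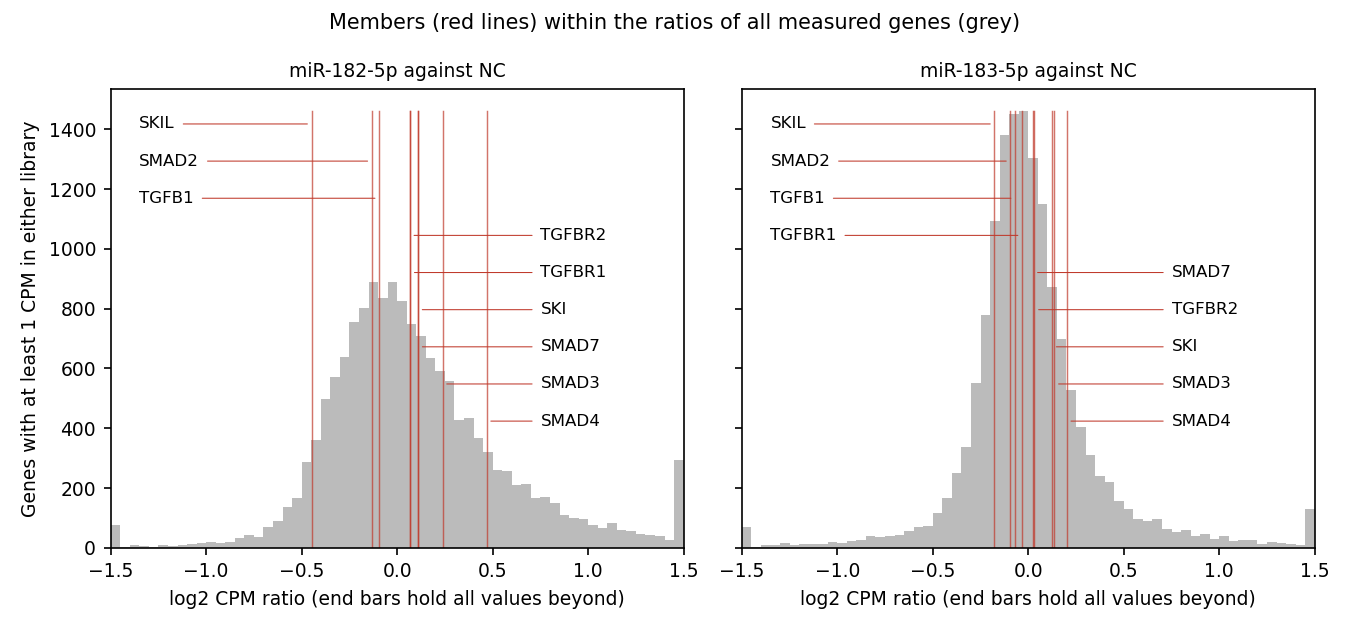
Distribution of the log2 CPM ratio of all genes with at least 1 CPM in either library (grey bars, number of genes) and the 9 members (red lines). The members lie within the bulk of all genes, SKIL at -0.45 and SMAD4 at 0.47 toward the ends for miR-182-5p against NC.

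Ordered by FPKM in NC, TGFB1 was the most abundant at 31.4, followed by SMAD3 at 13.1, TGFBR2 at 12.1 and SKIL at 12.1, SKI at 4.35, TGFBR1 at 2.35, SMAD7 at 2.28, SMAD2 at 1.27 and SMAD4 at 1.08. There is no replicate spread against which neighbours in this order could be told apart. The order depended on length: counts and FPKM together imply a gene length of 43825 bases for SMAD2 and 15870 for SMAD4. Divided instead by the merged exon length in GENCODE 29, the NC levels were 1.58 CPM per kilobase for SMAD2 and 1.92 for SMAD4, and TGFBR2 at 21.3 passed SMAD3 at 20.4. For SMAD2, whose exon length of 35303 bases is mostly 3′ UTR, which transcripts were in use was not tested.

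Facts of the libraries that move with these ratios are given together here, and their part in the results was not tested. The mitochondrial genome gave 13.5% of counts in NC, 16.7% with miR-182-5p and 16.1% with miR-183-5p, which lowers the CPM of nuclear genes in both. For miR-182-5p against NC, genes in the lowest quartile of mean CPM had a median log2 ratio of 0.38 and those in the highest quartile one of -0.07. The lowest quartile of implied length had a median of -0.03 and the highest one of 0.10. SKIL lies in the highest quartile of both CPM, where 22.7% of genes were lower by at least 1.2-fold, and length, where 8.04% were. SMAD4 lies in the second quartile of CPM, where 29.8% were higher, and in the highest of length, where 30.2% were.

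The cells carried the markers of an epithelium in all libraries. All 9 biliary and epithelial markers exceeded 1 CPM, summing to 6635 CPM in NC, 5549 with miR-182-5p and 5973 with miR-183-5p. KRT8 and KRT18 carry that sum, at 3423 and 2099 CPM in NC and 2772 and 1623 with miR-182-5p. With miR-182-5p, 2 of the 9 markers were higher (CFTR and KRT7) and 2 lower (KRT8 and KRT18). This is 22.2% each way, against 28.9% and 19.2% of all genes. The median log2 ratio of the markers was 0.04, against 0.02 for all genes. KRT7 had only 4.99 CPM in NC, 6.17 with miR-182-5p and 6.96 with miR-183-5p. Of 9 fibroblast and mesenchymal markers, only COL1A1 and VIM reached 1 CPM, and the sums were 14.9, 24.0 and 16.2 CPM in the same order. LUM and THY1 were at 0 in NC and with miR-183-5p, but had 16 and 3 counts with miR-182-5p. PDGFRA was at 0 with miR-183-5p. Of the 9, 3 (COL1A2, COL3A1 and DCN) had no row under these symbols. Of 9 endothelial and immune markers, LYZ, CD68 and PECAM1 reached 1 CPM in every library. CD68 had 248 counts in NC, 172 with miR-182-5p and 107 with miR-183-5p, and PECAM1 had 69, 121 and 70. PTPRC was at 0 in NC and with miR-183-5p and had 9 counts with miR-182-5p. CDH5, KDR and CD3E had no row under these symbols. The sum without LYZ was 5.15, 5.41 and 3.50 CPM. LYZ, a lysozyme that secretory epithelia also make, had 1596 CPM in NC.

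Beyond the 9 members, 101 other genes of the pathway had a row, in 10 lists ordered by role. For miR-182-5p against NC, 21 of the 82 measured were higher and 7 lower by 1.2-fold, which is 25.6% and 8.54%, against 28.9% and 19.2% of all genes. The split depended on scaling, with 26 higher and 3 lower without the mitochondrial genes in the total, and 16 higher and 9 lower with TMM. The shares of all genes were counted with the main scaling only, here and below. The median log2 ratio of all genes also moved with scaling, from 0.02 to 0.08 without the mitochondrial genes and to -0.03 with TMM. For miR-183-5p against NC, 8 of 81 were higher and 2 lower (9.88% and 2.47%, against 14.9% and 12.1% of all genes), and between the microRNA libraries 14 of 82 were higher with miR-182-5p and 3 lower (17.1% and 3.66%, against 22.2% and 10.1%). These became 10 higher and 1 lower without the mitochondrial genes in the total for the former, and 11 higher and 6 lower with TMM for the latter. The KEGG annotation in the authors' file was added as a list after the file was seen, and it includes 7 of the 9 members. By it, 16 of 65 measured genes of the TGF-beta signalling pathway were higher and 9 lower for miR-182-5p against NC (24.6% and 13.8%). For miR-183-5p against NC, 4 of 63 were higher and 1 lower (6.35% and 1.59%). Each of these shares is below that of all genes.

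The list with the highest share of genes higher by 1.2-fold for miR-182-5p against NC was that of ligand processing, latency and activation. In it 6 of 9 (66.7%) were higher and 0 lower, against 28.9% and 19.2% of all genes. Its median log2 ratio was 0.35, against 0.02 for all genes. It was picked from the 10 lists by its share, so the share restates that choice. Latent TGF-beta binding proteins tether the ligand to the matrix. LTBP3 had 2393 counts in NC, 3646 with miR-182-5p and 2853 with miR-183-5p, at 1.59 (1.51 to 1.68) and 1.14 (1.08 to 1.205) times NC. LTBP4 had 3776, 5091 and 4754 counts, at 1.41 (1.35 to 1.47) and 1.205 (1.15 to 1.26). LTBP1 had 1535, 2064 and 1784 counts, at 1.41 (1.32 to 1.503) and 1.11 (1.04 to 1.19).

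The integrins of this list bind the latent complex and take part in its activation. The beta subunit ITGB8 had 1946, 2831 and 2234 counts in the order NC, then miR-182-5p, then miR-183-5p, at 1.52 (1.44 to 1.61) and 1.10 (1.03 to 1.17) times NC. ITGAV, its alpha partner, was at 1.27 (1.24 to 1.30) and 1.06 (1.03 to 1.08), and ITGB6, the epithelial beta subunit, at 1.26 (1.23 to 1.30) and 1.12 (1.09 to 1.16). The miR-182-5p library was the highest of the 3 for each of these 6 genes and NC the lowest. The remaining genes did not pass 1.2-fold against NC: the protease FURIN, which cleaves the TGF-beta precursor, was at 1.001 (0.974 to 1.03) with miR-182-5p, the activator THBS1 at 1.07 (1.01 to 1.13), and LTBP2 at 0.975 (0.840 to 1.13). With miR-183-5p they were at 0.914 (0.889 to 0.939), 1.05 (0.992 to 1.11) and 1.10 (0.958 to 1.27). Of the 6 higher genes, 5 lie in the highest length quartile, where 30.2% of all genes were higher.

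**Figure D4:**
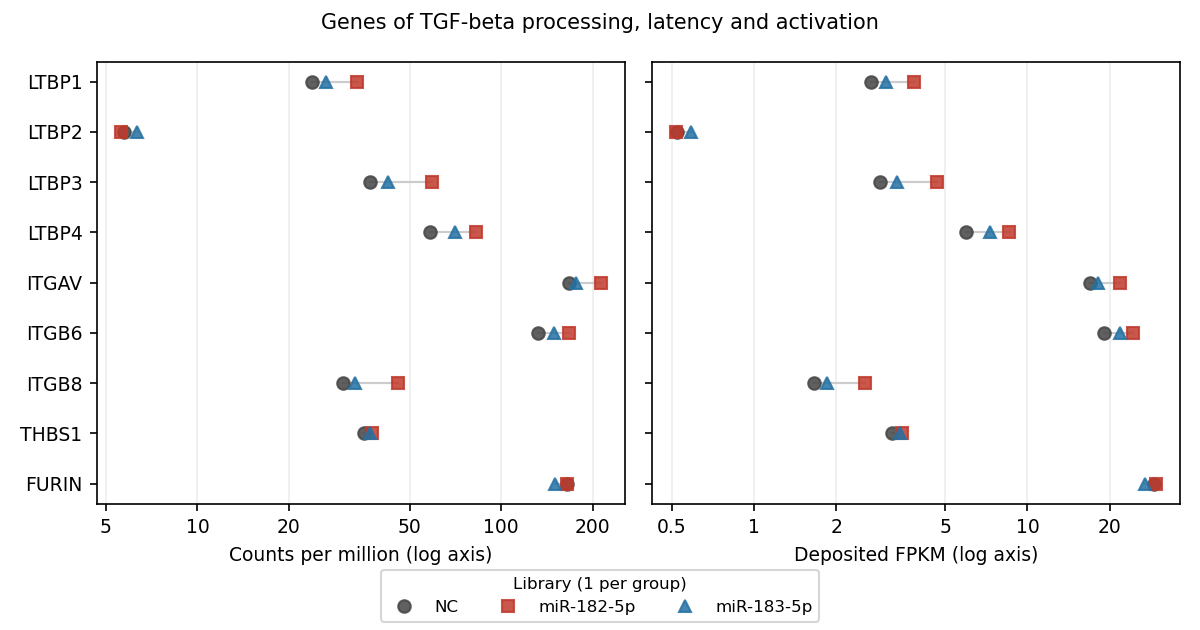
Level of the 9 measured genes of TGF-beta processing, latency and activation in the 3 libraries, as CPM (left) and deposited FPKM (right), on log axes; each point is 1 library. For LTBP1, LTBP3, LTBP4, ITGAV, ITGB6 and ITGB8 the miR-182-5p library lies to the right of the others, from 1.26 times NC in ITGB6 to 1.59 in LTBP3.

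Among the other ligands, GDF15, a stress-induced member of the family, had 239.7 CPM in NC, 228 with miR-182-5p and 205 with miR-183-5p, at 0.951 (0.929 to 0.973) and 0.855 (0.836 to 0.875) times NC. BMP4, a bone morphogenetic protein, had 451 CPM in NC, 372 with miR-182-5p and 405 with miR-183-5p. Its ratio to NC was 0.824 (0.810 to 0.838) and 0.897 (0.882 to 0.912). TGFB2, a second TGF-beta ligand, had 229 counts in NC, 380 with miR-182-5p and 423 with miR-183-5p, at 1.73 (1.47 to 2.05) and 1.77 (1.501 to 2.08) times NC. BMP2 had 195, 337 and 239 counts, at 1.81 (1.51 to 2.17) and 1.17 (0.967 to 1.42). TGFB3 had 50, 65 and 24 counts, and with miR-182-5p its interval includes 1 (1.36, 0.926 to 2.01). It overlaps IFT43 on the opposite strand, which had 412 counts in NC. Of the ligands, 3 of 6 measured (50%) were higher and 1 lower (16.7%) for miR-182-5p, against 28.9% and 19.2% of all genes. For miR-183-5p, 1 of 5 (20%) was higher and 0 lower, against 14.9% and 12.1%. BMP2 and TGFB3 lie in the lowest quartile of mean CPM, where 57.5% of all genes were higher for miR-182-5p against NC. TGFB2 lies in the second, where 29.8% were.

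Among the other receptors, 3 of 10 measured (30%) were higher and 0 lower for miR-182-5p, against 28.9% and 19.2% of all genes. The higher ones were the activin receptors ACVR1C, at 1.74 (1.29 to 2.35) on 74 NC counts, and ACVR2B at 1.22 (1.11 to 1.34), and the endoglin-associated receptor ACVRL1 at 1.21 (1.07 to 1.37). For miR-183-5p only ACVR1C passed, at 1.203 (0.877 to 1.65), an interval that includes 1. This is 10% higher and 0% lower, against 14.9% and 12.1% of all genes. ACVR1C lies in the lowest quartile of mean CPM. There, 57.5% of all genes were higher for miR-182-5p against NC and 37.9% for miR-183-5p. TGFBR3, the co-receptor betaglycan, stood with miR-182-5p at 1.21 (1.11 to 1.31) times its level with miR-183-5p. The BMP antagonist CHRD was higher with miR-182-5p, at 1.80 (1.64 to 1.98) times NC, and at 1.14 (1.03 to 1.26) with miR-183-5p. With miR-182-5p it was the 1 higher of 3 measured extracellular and membrane inhibitors (33.3%), and 0 were lower. Of all genes, 28.9% were higher and 19.2% lower.

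The other SMADs also differed in direction. SMAD6, the inhibitory relative of SMAD7 in the BMP branch, had 4877 counts in NC, 6095 with miR-182-5p and 5853 with miR-183-5p, at 1.31 (1.26 to 1.36) and 1.15 (1.11 to 1.19). SMAD9 was at 1.81 (1.34 to 2.46) and 1.55 (1.14 to 2.11) on 71 NC counts. It lies in the lowest quartile of mean CPM. There, 57.5% of all genes were higher for miR-182-5p against NC and 37.9% for miR-183-5p. The BMP transducer SMAD1 was at 0.811 (0.713 to 0.921) with miR-182-5p and at 0.997 (0.885 to 1.12) with miR-183-5p. So of the inhibitory SMADs, SMAD6 passed 1.2-fold with miR-182-5p and SMAD7 did not.

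Of the SMAD anchors, partners and cofactors, 1 of 13 was higher (7.69%) and 2 lower (15.4%) for miR-182-5p, against 28.9% and 19.2% of all genes. The transcription factor SP1 was at 1.24 (1.21 to 1.27), the receptor-associated inhibitors STRAP at 0.742 (0.723 to 0.762) and FKBP1A at 0.752 (0.734 to 0.771). For miR-183-5p, STRAP was the 1 gene past the threshold, at 0.816 (0.795 to 0.836), where 14.9% of all genes were higher and 12.1% lower. The corepressor TGIF2 stood with miR-182-5p at 1.21 (1.11 to 1.32) times its level with miR-183-5p. None of the 12 measured genes in the list of ubiquitin ligases, deubiquitinases and phosphatases passed 1.2-fold in any of the 3 comparisons. Of all genes, 28.9% were higher and 19.2% lower for miR-182-5p against NC, and 14.9% and 12.1% for miR-183-5p against NC. Between the microRNA libraries the shares of all genes were 22.2% and 10.1%. The list includes PMEPA1, which is also counted among the TGF-beta-induced genes. In this list, the ligase RNF111, which degrades SKI and SKIL, was at 1.03 (0.979 to 1.09) and 1.06 (1.003 to 1.11). The SMAD7 partners SMURF1 and SMURF2 were at 0.994 and 0.977 with miR-182-5p. In the kinase branch that does not use SMADs, 2 of 8 (25%) were lower for miR-182-5p and 0 higher, against 19.2% and 28.9% of all genes. The lower ones were the GTPase RHOA at 0.725 (0.709 to 0.743) and the kinase partner TAB1 at 0.826 (0.774 to 0.881). For miR-183-5p, 0 of the 8 passed in either direction, against 14.9% of all genes higher and 12.1% lower.

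Of 17 measured TGF-beta-induced genes, 6 were higher and 0 lower for miR-182-5p, and 4 higher and 1 lower for miR-183-5p. The lower shares were 0% and 5.88%, against 19.2% and 12.1% of all genes. The higher shares were 35.3% and 23.5%, against 28.9% and 14.9% of all genes. In the miR-182-5p library those with the largest ratios were ACTA2, a smooth muscle actin, at 1.88 (1.3995 to 2.56) on 71 NC counts, the actin-binding gene TAGLN at 1.87 (1.65 to 2.11) and the collagen gene COL1A1 at 1.86 (1.69 to 2.05). All 3 are also genes of fibroblasts. ACTA2 lies in the lowest quartile of mean CPM, where 57.5% of all genes were higher for miR-182-5p against NC. TAGLN and COL1A1 lie in the second, where 29.8% were. The other higher genes lay closer to the threshold: TGFBI at 1.21 (1.16 to 1.27), BHLHE40 at 1.207 (1.15 to 1.27) and ITGB6 at 1.26. ITGB6 is also counted in the latency and activation list. COL1A1 itself makes up most of the fibroblast marker sum given above, at 10.4 CPM in NC and 19.4 with miR-182-5p, while VIM had 3.70 and 3.42 CPM, so that sum is no separate measurement. ACTA2 and TAGLN overlap genes on the opposite strand with more counts (STAMBPL1, 1663 in NC, and PCSK7, 4388). On the same strand, AL157394 overlaps ACTA2 and had 41 counts in NC, 77 with miR-182-5p and 92 with miR-183-5p, and AP000892 overlaps TAGLN and had 207, 364 and 292. The values of ACTA2 and TAGLN are uncertain to that extent. The matricellular gene CCN2 was at 1.12 (0.931 to 1.34). In the miR-183-5p library ACTA2 was at 1.77 (1.31 to 2.39) and TAGLN at 1.33 (1.17 to 1.51), but CCN2 at 0.676 (0.550 to 0.830).

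In the list of BMP-induced and TGF-beta-repressed genes, 2 of 5 measured were higher (SMAD6 and SMAD9) and 1 lower for miR-182-5p. This is 40% and 20%, against 28.9% and 19.2% of all genes. SMAD6 and SMAD9 are also counted among the other SMADs, and SMAD9 lies in the lowest quartile of mean CPM, where 57.5% of all genes were higher. The lower gene was MYC, which TGF-beta represses in epithelia, at 0.827 (0.808 to 0.847). MYC was at 0.839 (0.820 to 0.859) with miR-183-5p. ID1 and ID2 did not pass 1.2-fold with either microRNA. ID1 was at 0.945 with miR-182-5p and 1.10 with miR-183-5p, and ID2 at 1.17 and 1.03. The SMAD-binding palindrome GTCTAGAC was searched on both strands in the promoters of the members (250 bases before to 50 after the start, RefSeq, GRCh38.p14). It was in 0 of 8 promoters matched and in 0.201% of all 27305, and the shorter CAGAC, which the palindrome does not contain in full, was in 4 of 8 (SKIL, SMAD3, SMAD7 and TGFBR1) and in 45.0% of all.

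**Figure D5:**
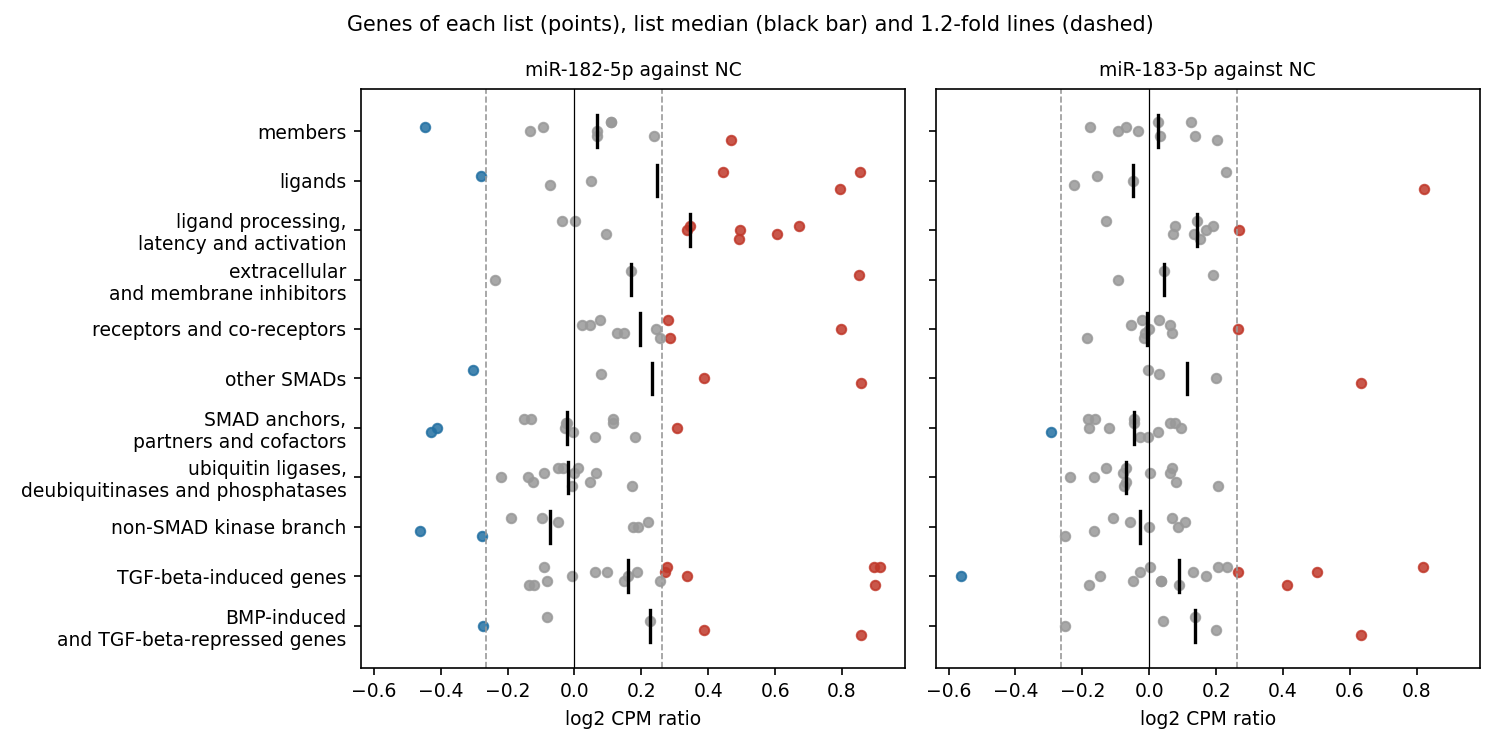
Log2 CPM ratio of each measured gene (points) by list for miR-182-5p (left) and miR-183-5p (right) against NC; black bars are list medians, dashed lines 1.2-fold, red and blue points genes past it. The latency and activation list has the rightmost median on the left, at 0.35. No gene in the list of ubiquitin ligases, deubiquitinases and phosphatases is past the lines.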

How the data were processed

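The gene counts are whole numbers as deposited by the authors, and the FPKM values were deposited beside them, per the file headers. Per the submitters' processing notes, cutadapt 1.9 and FastQC were used and the build was GRCm38, a mouse assembly, although all 30923 identifiers are human Ensembl ones. The aligner, the counting program and its use of strand were not given in the sources used here. Of the identifiers, 30085 are in GENCODE 29 and 17915 genes have the same span there, so coordinates are those of the file on GRCh38.

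CPM used the sum of all gene counts. A gene was called at a CPM ratio of 1.2-fold or more where either of the 2 libraries compared reached 1 CPM. This is a rule of size, with no test. Intervals (SciPy 1.17.1) were computed given the sum of the counts in both libraries and checked on data with known ratios. The members and the gene lists were chosen with earlier results of these data known. Beside the members, the rule named up to 3 genes of each list in each direction with the largest log2 ratio; other listed genes named for their role were chosen after their values were seen. One gene that the rule named is not reported here. Alternatives were other scalings (edgeR 4.0.16 TMM, DESeq2 1.42.0 size factors, totals without mitochondrial genes), FPKM, log2 of FPKM plus 1, another fold and other filters.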

Additional observations from a re-analysis of the deposited data

How the results depend on the processing

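Over the 5 other scalings and units, 2 of the 27 member ratios changed side of 1, both lying close to it: TGFBR1 for miR-183-5p against NC (0.978 to 1.01) and TGFBR2 between the microRNA libraries (0.976 to 1.03). SMAD4 ranged from 1.21 to 1.44 and SKIL from 0.702 to 0.763 for miR-182-5p against NC. No scaling moved the median of all genes by more than 0.1 on the log2 scale. Without the mitochondrial genes in the total, SMAD3 also passed, so 2 members were higher for miR-182-5p against NC, and 0 were lower between the microRNA libraries. There, 0 were higher with TMM, with size factors and with log2 of FPKM plus 1, and 0 lower with the last. At 1.5-fold 0 members passed in any comparison.

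For the other pathway genes against NC, the 7 lower for miR-182-5p became 3 (without mitochondrial genes, and with log2 of FPKM plus 1), 4 (FPKM), 0 (1.5-fold) and 14 (no filter), and the 21 higher became 10 at 1.5-fold. For miR-183-5p the 8 higher became 3 (log2 of FPKM plus 1, and 1.5-fold) and 4 (at least 5 CPM), and the 2 lower became 1 (without mitochondrial genes, and at least 5 CPM), 0 (1.5-fold) and 16 (no filter). Between the microRNA libraries the 14 higher became 7 (log2 of FPKM plus 1), 5 (1.5-fold) and 24 (no filter), and the 3 lower became 6 (size factors, TMM and no filter), 1 (log2 of FPKM plus 1) and 0 (1.5-fold). Without the filter, genes under 1 CPM are counted too. The shares of all genes past the fold were counted in the main setting only. These recounts of members and pathway genes therefore have no such share beside them. With matches to positions 2 to 8 alone, 3 of the 9 members held a miR-182-5p site, against 15.1% of the 12460 genes. For miR-183-5p, 5 of the 9 did, against 12.4%. No paired analysis was possible because each group has 1 library.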
